A study of Mus musculus with 2 samples.

Results

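The TREM and CD300 families are myeloid cell-surface receptors with a single immunoglobulin domain, and 9 of their mouse genes were followed here in splenic red pulp macrophages of SIRPα-KO and WT mice. The members were Trem1, Trem2, Trem3, Treml2, Treml4, Cd300a, Cd300lb, Cd300ld and Cd300lf, 9 of 20638 genes that had a named probe on the arrays. They were found by the transcript accession of each probe, which gave 12 probes of 1 spot each, with no control spot and no outlier flag on either array. Trem2 and Cd300ld, both receptors that couple to activating adaptors, were at least 2-fold brighter on the array labelled SIRPα-KO, relative to WT. Cd300lb and, at its brightest probe, Cd300lf lay higher by less than that limit, while Trem1, Cd300a and Treml4 lay close to their WT signals. Trem3 and Treml2 were not well above background on either array.

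Many of these receptors come in activating and inhibitory forms. Most activating members have a short tail and signal through adaptor proteins such as DAP12, encoded by Tyrobp, or the Fc receptor γ chain, encoded by Fcer1g, whose ITAM motifs recruit the kinase Syk. Inhibitory members carry ITIM motifs in their own tail and recruit the phosphatases SHP-1 and SHP-2, as SIRPα does when it binds CD47. Treml2 is counted here with the activating members, although its sign is debated. Several TREM and CD300 proteins bind lipids exposed on dying cells, and red pulp macrophages are the phagocytes that remove aged red blood cells.

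Each genotype was measured on 1 array made from 1 pool of 5 mice, a SIRPα-KO pool and a WT pool, so the values have no replicate and no test across samples was possible. In both groups, spleens were digested, red blood cells were lysed, macrophages were sorted by F4/80 and low CD11b, and globin transcripts were depleted from the RNA. The sources used here do not give the knockout allele, strain, sex or age of the mice. In pooled cells, fewer cells of a type and less RNA per cell cannot be told apart.

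Values are processed signals, the background-subtracted spot brightness on a linear scale, and differences are log2 values, array labelled SIRPα-KO minus WT, after each array was set to its own 75th percentile. The error after ± is that of the scanner software for both spots and covers spot measurement only. For bright spots the software error was nearly the same whatever the gene. Its median was 0.14 on each array for repeated probes with signals of 300 to 1000. Setting a bright gene against its error is thus close to setting it against a fixed limit. On probes spotted about 10 times, the median SD between spots of 1 array was 0.20 on the array labelled SIRPα-KO and 0.21 on the WT array for signals of 10 to 30 (99 and 101 probes), on the log2 scale. For signals of 300 to 1000 it was 0.08 on the array labelled SIRPα-KO and 0.10 on the WT array (19 and 14 probes). The limit for calling a gene higher or lower was a 2-fold difference, 1 on the log2 scale. Over 15824 measured genes the median difference was -0.09, 40.5% lay above 0, 3.11% reached 2-fold higher and 5.48% reached 2-fold lower. Higher genes made up 36.2% of the genes past the limit. That share was 20.5% without scaling, 15.0% with normexp, 45.1% with cyclic loess, 46.9% with quantile normalization and 47.1% in the values of the authors. The Sirpa probe had a signal of 1006 on the array labelled SIRPα-KO and 795 on the WT array, a difference of 0.51 ± 0.20. This direction is opposite to a loss of Sirpa transcript. The sources used here give neither the knockout allele nor the position of the probe, so whether a loss should be seen at it is not known. The value therefore cannot check the label. Each direction below follows the labels alone. Of 12 red pulp macrophage markers 9 were measured, with Adgre1, which encodes F4/80, at 10406 on the array labelled SIRPα-KO and 6830 on the WT array, a difference of 0.78 that a further probe did not share (-0.47). Of the 9, 4 lay above 0 and 5 below, with a median of -0.07 and a range from -0.57 (Cd163) to 1.46 (Cd5l), the one marker of the list past the limit. That median is the value of Axl, which had 5.98 on the array labelled SIRPα-KO and 10.1 on the WT array. Axl was well above background on the WT array alone, so its dim side was set to a bound. Without the bound it lay at -0.58. Mrc1 and Mertk of that list were not well above background on either array.

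The genes lie in 2 clusters, the TREM genes on chromosome 17 and the CD300 genes on chromosome 11. Promoters from RefSeq (GRCm38.p6), 250 bases before and 50 after the start of the gene, were matched for 7 of the 9 members, among them Trem2 at chr17:48346151-48346450 (plus strand), Cd300ld at chr11:114989837-114990136 (minus strand), Cd300lf at chr11:115133943-115134242 (minus strand) and Cd300a at chr11:114889791-114890090 (plus strand). These 4 are shown because they belong to both members past the 2-fold limit and to both inhibitory members. Each is written 5′ to 3′ on the strand of its gene, and capitals mark GAGGAA, a core bound by ETS factors such as PU.1, or its reverse complement.
Trem2: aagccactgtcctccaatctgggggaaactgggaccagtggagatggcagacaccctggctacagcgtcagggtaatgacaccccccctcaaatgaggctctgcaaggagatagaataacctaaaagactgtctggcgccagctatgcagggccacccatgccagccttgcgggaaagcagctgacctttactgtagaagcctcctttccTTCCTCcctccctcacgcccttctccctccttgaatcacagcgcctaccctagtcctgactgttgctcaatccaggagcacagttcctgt
Cd300ld: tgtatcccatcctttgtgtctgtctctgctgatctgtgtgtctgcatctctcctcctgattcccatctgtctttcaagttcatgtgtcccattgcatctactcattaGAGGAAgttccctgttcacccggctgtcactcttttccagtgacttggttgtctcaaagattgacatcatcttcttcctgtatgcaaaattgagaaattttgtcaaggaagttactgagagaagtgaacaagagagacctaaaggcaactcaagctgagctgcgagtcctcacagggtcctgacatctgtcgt
Cd300lf: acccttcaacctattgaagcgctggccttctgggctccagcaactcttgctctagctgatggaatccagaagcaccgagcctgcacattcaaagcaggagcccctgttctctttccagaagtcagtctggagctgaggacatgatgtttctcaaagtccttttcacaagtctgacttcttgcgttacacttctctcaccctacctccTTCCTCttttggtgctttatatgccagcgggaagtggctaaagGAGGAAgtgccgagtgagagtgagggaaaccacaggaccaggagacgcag
Cd300a: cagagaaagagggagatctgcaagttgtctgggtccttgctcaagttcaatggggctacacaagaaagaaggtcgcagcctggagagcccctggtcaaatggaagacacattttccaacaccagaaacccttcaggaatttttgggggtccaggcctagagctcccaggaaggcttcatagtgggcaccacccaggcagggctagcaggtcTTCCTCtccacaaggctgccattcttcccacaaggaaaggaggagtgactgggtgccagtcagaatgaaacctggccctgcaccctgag
The ETS core, searched on both strands, was found in 6 of 7 member promoters (Trem1, Trem2, Treml4, Cd300a, Cd300ld and Cd300lf) and in 28.3% of all 32851 promoters in the table. In Trem2, Cd300a and Cd300lf a copy on the opposite strand began at position -40, -39 and -43 from the start of the gene. The core was thus found both in members that lay higher and in members that did not. Of 5 further motifs, the C/EBP-like TTNNGNAA was found in the same 6 members and in 40.7% of all promoters, and the MAF-type TGCTGA in Cd300lb and Cd300ld and in 19.5%. Among the 7, the AP-1 motif TGANTCA was found in Trem2 alone (7.81% of all promoters), the interferon-type GAAANNGAA in Cd300lf alone (8.56%) and the E-box CACGTG in none (7.15%). The interferon-type and a C/EBP-like match of Cd300lf overlapped. The interferon-type motif was shortened after its longer form had matched no member promoter. A match describes these letters only.

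**Figure D1:**
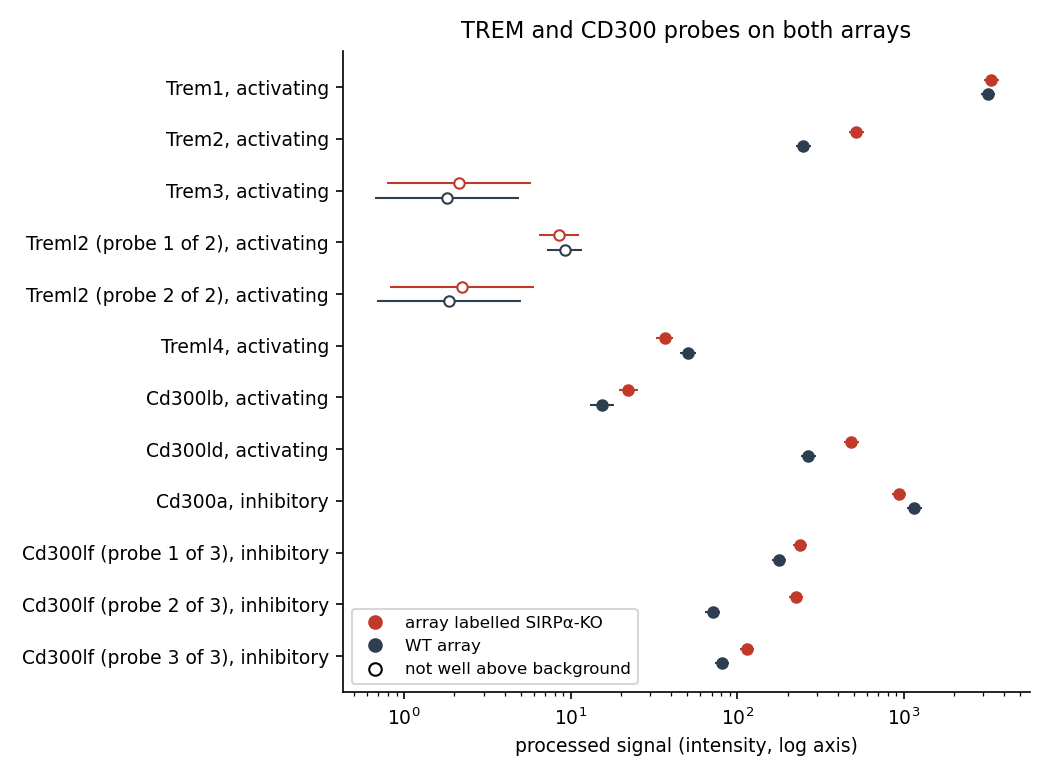
Processed signal (intensity, log axis) of the 12 member probes, with the array labelled SIRPα-KO drawn above the WT array in each row and bars for the spot error of the software. Trem2, Cd300ld and all 3 Cd300lf probes lie to the right of their WT signal, and open points mark the 3 probes not well above background; signals of different probes are not comparable with each other.

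Among the activating TREM receptors, Trem2, a lipid sensor that pairs with DAP12 and promotes uptake of dying cells, had a signal of 517 on the array labelled SIRPα-KO and 249 on the WT array. The signals lay well apart relative to their error, with a difference of 1.22 ± 0.20, or 2.34-fold higher. Of the measured genes, 1.62% lay further above 0, and 5.55% differed more in size in either direction. It was at least 2-fold higher in all 5 other scalings and sources of values, from 1.01 after normexp to 1.38 in the authors' values.

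Trem1, which pairs with DAP12 and amplifies inflammatory responses of neutrophils and monocytes, had 3346 on the array labelled SIRPα-KO and 3202 on the WT array. Its difference of 0.23 ± 0.20 was 1.17-fold and close to its error, and 26.2% of genes lay above it. In those 5 settings it ranged from 0.06 without scaling to 0.49 in the authors' values. Neutrophil markers, listed because these cells carry Trem1, were measured for 7 of 10 genes, with a median difference of -0.05 and a range from -1.23 (S100a8) to 0.53 (Csf3r). In this list S100a9 and Retnlg had their dim side, the array labelled SIRPα-KO, set to a bound. They lay at -0.16 and 0 with the bound and at -1.22 and -0.20 without it. The neutrophil median thus rests in part on the bound. The summed signal of the list was 64105 on the array labelled SIRPα-KO and 65166 on the WT array, most of it from Elane (39299 on the array labelled SIRPα-KO and 45722 on the WT array), while Mpo and Ngp were not well above background on either array. Monocyte markers were measured for 5 of 7 genes with a median of -0.19, and Ccr2 was not well above background on either array. The part of such cells in the Trem1 signal was not tested.

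Treml4, which pairs with DAP12, binds dying cells and is known in splenic macrophages and dendritic cells, had 36.5 on the array labelled SIRPα-KO and 50.4 on the WT array. The difference of -0.30 ± 0.23, 1.23-fold lower, was little more than its error, and 32.0% of genes lay below it. It stayed below 0 in all 5 settings, from -0.46 to -0.12. Conventional dendritic cell markers had a median of -0.17 over 7 measured genes, from -1.07 (Flt3, whose further probe lay at -2.25) to 0.85 (Itgax). Of the 7, 3 lay above 0 and 4 below. Itgax had 18.1 on the array labelled SIRPα-KO and 11.3 on the WT array, near the bottom of the measured range. The summed signal of the list before scaling was 697 on the array labelled SIRPα-KO and 1470 on the WT array. Most of it came from Flt3 (516 on the array labelled SIRPα-KO and 1217 on the WT array). Clec9a of that list was well above background on the WT array alone, and lay at -0.38 with the bound and -1.52 without it. The part of dendritic cells in the Treml4 value was not tested.

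Trem3, a DAP12-coupled receptor of mouse macrophages, had a signal of 2.13 on the array labelled SIRPα-KO and 1.80 on the WT array. Treml2, reported on B cells, neutrophils and macrophages, had 8.50 and 2.23 at its 2 probes on the array labelled SIRPα-KO and 9.19 and 1.85 on the WT array. These 3 probes were not well above background on either array, so no difference is given for these genes. The lowest signal well above background was 8.53 on the array labelled SIRPα-KO and 7.92 on the WT array.

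Among the activating CD300 receptors, Cd300ld, which couples to the Fc receptor γ chain in the mouse, had 484 on the array labelled SIRPα-KO and 267 on the WT array. The difference of 1.03 ± 0.20, 2.04-fold higher, lay within its error of the 2-fold limit, and 2.78% of genes lay above it. It fell short of the limit without scaling (0.86) and after normexp (0.79), and reached 1.18 in the authors' values. Cd300lb, a DAP12-coupled receptor, had 22.1 on the array labelled SIRPα-KO and 15.4 on the WT array, both near the bottom of the measured range. Its difference was 0.69 ± 0.30, 1.61-fold, and 8.34% of genes lay above it. It shrank to 0.25 after normexp.

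Cd300a, an ITIM-bearing receptor that binds phosphatidylserine and phosphatidylethanolamine on dying cells, had 937 on the array labelled SIRPα-KO and 1157 on the WT array. The difference of -0.14 ± 0.20 was smaller than its error and near the median of all genes, and it changed sign after quantile normalization, after cyclic loess and in the authors' values, where it reached 0.11. Cd300lf, an ITIM-bearing receptor that binds ceramide and phosphatidylserine and is also reported to promote uptake of apoptotic cells, was read by 3 probes. The brightest had 237 on the array labelled SIRPα-KO and 177 on the WT array, a difference of 0.59 ± 0.21. The other probes had 225 and 114 on the array labelled SIRPα-KO and 71.0 and 80.9 on the WT array, differences of 1.83 ± 0.21 and 0.67 ± 0.21. All 3 lay above their WT signals, but the probe with a difference of 1.83 was 3.56-fold higher and the others less than 2-fold. The brightest probe and that probe are assigned to the same transcript, NM_001169153, and the remaining one to NM_145634. The differences of the 3 probes spanned 1.24 on the log2 scale, against a median span of 0.70 in 338 genes with 3 or more probes well above background on both arrays, of which 18.3% had a wider span.

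**Figure D2:**
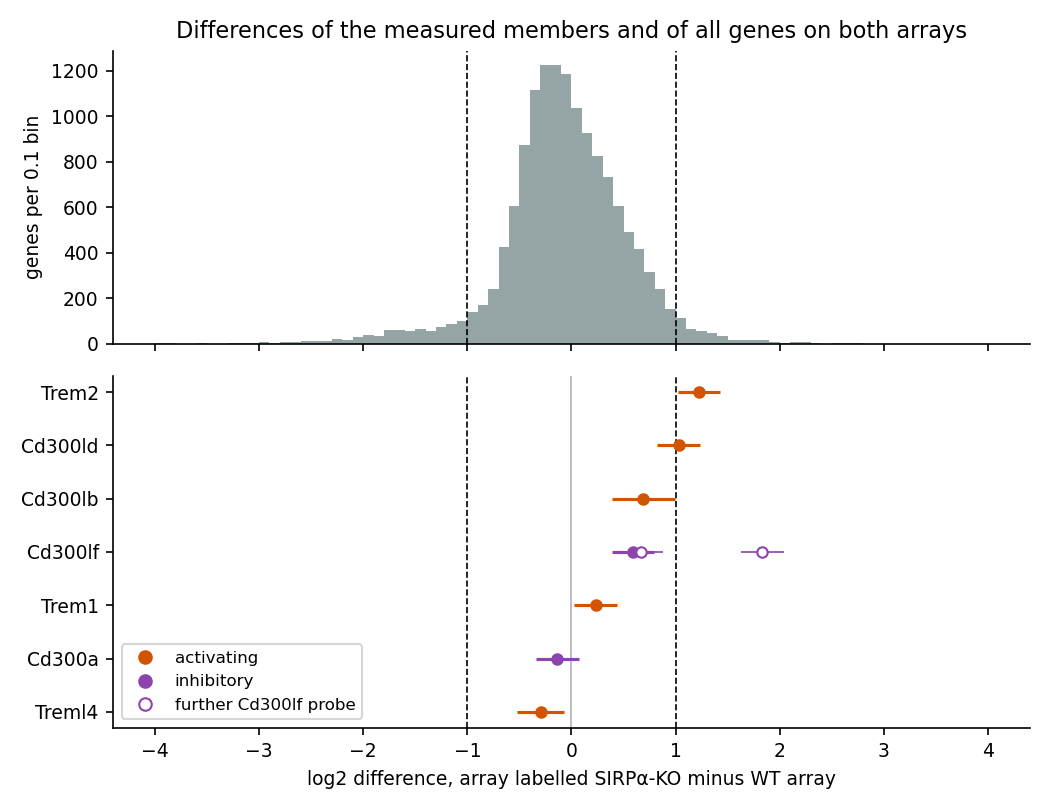
Upper panel, number of genes measured on both arrays per 0.1 of log2 difference, array labelled SIRPα-KO minus WT array; lower panel, the 7 measured members with the spot error as bars and dashed lines at 2-fold. Trem2 and Cd300ld lie past the upper limit, Treml4 and Cd300a lie below 0, and 1 of the further Cd300lf probes lies at 1.83.

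Of the 7 measured members, all well above background on both arrays, 2 were at least 2-fold higher, Trem2 and Cd300ld, and 0 were lower by that much. Among the 14155 genes measured on both arrays these shares were 2.97% and 5.52%. Above 0 lay 5 of the 7, against 43.5% of those genes, and the median of the 7 was 0.59, against -0.08. Of the 7 differences, 4 were larger than 2 times their error (Trem2, Cd300ld, Cd300lb and Cd300lf), as were 34.8% of those genes in either direction.

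Activating and inhibitory members were set against each other because SIRPα itself is an inhibitory receptor. The 5 measured activating members had a median difference of 0.69 and ranged from -0.30 (Treml4) to 1.22 (Trem2). The 2 inhibitory members lay at -0.14 (Cd300a) and 0.59 (Cd300lf), with a median of 0.23. The ranges overlapped, with Cd300lf above Trem1 and Treml4. Both genes at least 2-fold higher were activating members, as were 5 of the 7 measured members. With the mean of its probes (1.03) or its probe at 1.83, the inhibitory Cd300lf passed the limit too, and 3 members did so. The gap between the medians, 0.46, rested on the probe chosen for Cd300lf. With the probe at 1.83 the inhibitory median was 0.85 and the gap was -0.16, so its direction turned. Without Cd300lf the gap was 0.83.

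**Figure D3:**
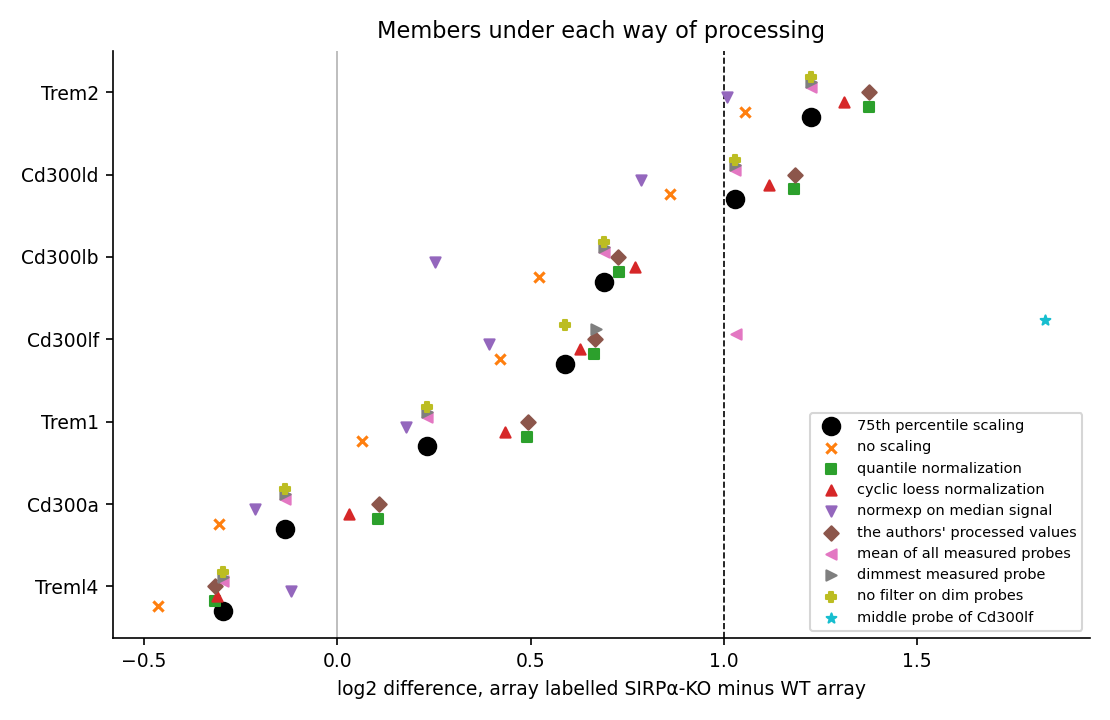
Log2 difference, array labelled SIRPα-KO minus WT array, of the 7 measured members under each way of processing, 1 symbol per way, with a dashed line at 2-fold. Trem2 stays past the line throughout, Cd300ld falls short of it without scaling and after normexp, Cd300a crosses 0, and Cd300lf depends on its probe.

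The genes next to the members in the clusters gave a further view. Cd300c2, which lies next to Cd300ld and encodes a DAP12-coupled receptor, had 322 on the array labelled SIRPα-KO and 179 on the WT array, 2.02-fold higher (1.02 ± 0.20). It fell short of the limit without scaling (0.85) and after normexp (0.74), as Cd300ld did. Cd300ld4, the next gene on, differed by 0.19 ± 0.21, and Cd300e, a DAP12-coupled receptor beside Cd300lf, by 0.20 ± 0.20, each within or near its error. The neighbours Cd300ld and Cd300c2 thus lay at nearly the same difference. Of the genes beside this pair, Cd300ld4 lay lower and Cd300c had no value. Cd300lb, beyond Cd300c, lay at 0.69 ± 0.30. Further on from Cd300ld4, the genes Cd300ld2, Cd300ld3 and Cd300ld5 had no value either. CD300 genes of this stretch are close copies of each other, probe sequences were not used here, and signal shared between copies was not tested. Cd300lg, a CD300 gene of endothelium outside the tight cluster, had 5237 on the array labelled SIRPα-KO and 10196 on the WT array, 1.73-fold lower (-0.79 ± 0.20). On chromosome 17, Treml1, an ITIM-bearing receptor of platelets next to Trem2, had 81.1 on the array labelled SIRPα-KO and 118 on the WT array (-0.37 ± 0.21). Of the 5 measured family genes that were not members, 1 was at least 2-fold higher and 0 lower, beside 3.11% and 5.48% of all measured genes.

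The adaptors and kinases that carry the signal of activating members showed no common shift. Of 21 measured genes in this list of 23, 0 passed the limit upward and 2 downward, and the median was 0.05. Over all measured genes, 3.11% passed the limit upward and 5.48% downward. Tyrobp, which encodes DAP12, had 11.8 on the array labelled SIRPα-KO and 13.7 on the WT array, near the bottom of the measured range (-0.05 ± 0.41). Fcer1g had 572 on the array labelled SIRPα-KO and 908 on the WT array, a difference of -0.50 ± 0.20, opposite in sign to that of Cd300ld, whose receptor uses it. Hcst, which encodes the adaptor DAP10, had 413 on the array labelled SIRPα-KO and 252 on the WT array (0.88 ± 0.20), and Syk differed by 0.00 ± 0.20. The genes past the limit were Malt1, the protease of the CARD9 complex, with 215 on the array labelled SIRPα-KO and 566 on the WT array (2.35-fold lower), and Lcp2, an adaptor downstream of Syk, with 11.7 on the array labelled SIRPα-KO and 27.9 on the WT array (2.11-fold lower). Lcp2 fell inside the limit after cyclic loess (-0.99) and normexp (-0.22). Without scaling 4 genes of the list were lower, and Hcst passed the limit in the authors' values and after quantile normalization (1.03 in each).

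Genes on the inhibitory side moved both ways. Of 9 measured phosphatases and brakes 2 passed the limit upward and 1 downward, beside 3.11% and 5.48% of all measured genes. The median of the list was 0.21. Csk, the kinase that holds Src-family kinases in check, had 94.9 on the array labelled SIRPα-KO and 48.1 on the WT array (2.22-fold higher), and Dok3, an adaptor that dampens immune receptor signals, had 42.6 on the array labelled SIRPα-KO and 19.0 on the WT array (2.52-fold higher). Cblb, a ubiquitin ligase, had 6536 on the array labelled SIRPα-KO and 17583 on the WT array (2.39-fold lower), and its further probe was not well above background. Csk fell short of the limit without scaling (0.98), and Csk (0.61) and Dok3 (0.39) did so after normexp. The phosphatase genes named for ITIM signalling were within 2-fold, with Ptpn6 (SHP-1) at -0.63 ± 0.34, Ptpn11 (SHP-2) at 0.58 ± 0.20 and Inpp5d (SHIP1) at 0.61 ± 0.21.

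Ligands, partners and sheddases of the receptors stayed within 2-fold in all 13 measured genes, with a median of -0.05. Hmgb1 lay highest, at 0.88 ± 0.20, with 6 further probes between -0.02 and 0.37, and its brightest probe passed the limit in the authors' values and after quantile normalization (1.02 in each). Pglyrp1, a ligand of TREM1, differed by -0.05 ± 0.22. Apoe, a lipid carrier that TREM2 binds, had 459 on the array labelled SIRPα-KO and 665 on the WT array (-0.37 ± 0.20). Of the others, Hspd1, a chaperone reported to bind TREM2, lay at 0.53 ± 0.20 and Clu, a further TREM2 ligand, at 0.07. The TREM2-cleaving proteases Adam10 and Adam17 differed by -0.02 ± 0.23 and 0.46 ± 0.21, and Il4ra, whose receptor associates with the Cd300lf protein, by less than 0.01 (± 0.20) at its brighter probe and -0.81 ± 0.23 at the other.

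**Figure D4:**
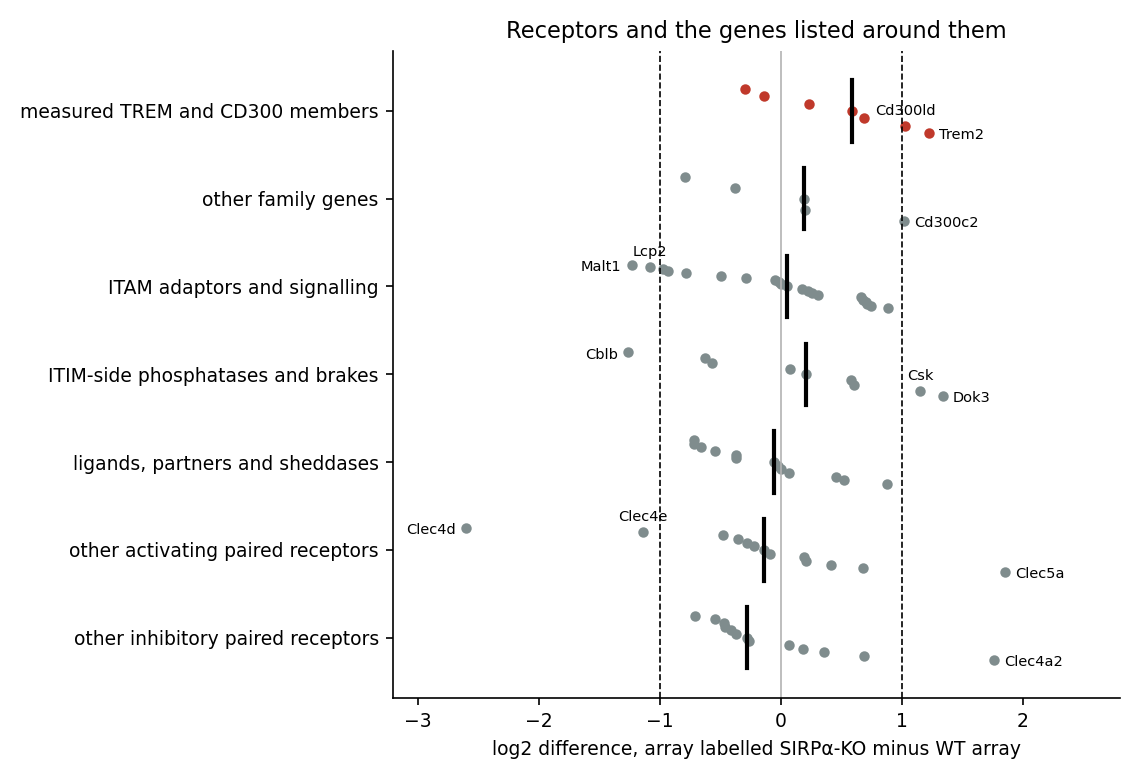
Log2 difference, array labelled SIRPα-KO minus WT array, of each measured gene (points) in the receptor families and 6 lists around them, with the list median as a bar and dashed lines at 2-fold. The 7 measured members have a median of 0.59, and the lists around them have medians from -0.28 to 0.21.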

How the data were processed

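Per the file headers, the authors deposited scanner tables of spot intensity made with Agilent Feature Extraction 11.0.1.1 on mouse design 26655 (grid build mm9), 1 colour, with background subtraction and spatial detrending by the software. The authors' deposited value table holds log2 values whose normalization the sources used here do not give; its differences lay within 0.01 of those after quantile normalization of the scanner signal for 99.0% of 25252 probes well above background on both arrays.

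From the intensities, control spots and 167 (array labelled SIRPα-KO) and 190 (WT array) of 43020 other spots with outlier flags were left out, and no spot was saturated. Log2 signals were set to the 75th percentile of each array (89.1 on the array labelled SIRPα-KO and 100.2 on the WT array). Probes were named through RefSeq transcripts of GRCm38.p6, used for names and neighbours (27200 of 39386 probes). A gene took its probe with the highest mean log2 signal and was measured if either array had that probe well above background, with the dim side otherwise set to a bound. The number of arrays limits the precision. R 4.3.3, limma 3.58.1 and Python 3.11.15 were used, and the gene step was tested on simulated data. Alternatives were other scalings, normexp with an offset of 50, the authors' values, other probes, no filter and other fold limits. Named genes were Sirpa, the members, 12 core pathway genes, measured family genes and pathway list genes at least 2-fold apart; others, the cell type markers among them, were named after their values were seen. With 2 arrays no likeness of patterns between genes can be measured. The members, lists and motifs were chosen with earlier results of these data known.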

Additional observations from a re-analysis of the deposited data

How the results depend on the processing

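Without scaling, all differences between genes measured on both arrays fall by 0.17 by construction and the median of all genes was -0.26. Members at least 2-fold higher numbered 1 without scaling, 1 after normexp, 4 at 1.5-fold and 0 at 3-fold. They numbered 3 with the mean of all probes and 3 with the middle Cd300lf probe, and 0 members were lower in any setting. The median of activating members was 0.25 after normexp and 0.41 with no filter on dim probes, which adds Trem3 and Treml2. That of inhibitory members was 0.45 with the mean of all probes, 0.85 with the middle Cd300lf probe and -0.14 without Cd300lf. The gap between them was 0.16 after normexp, 0.24 with mean probes, 0.18 with no filter, -0.16 with the middle Cd300lf probe and 0.83 without Cd300lf and Treml2. The cause was not tested for normexp, whose offset of 50 shrinks differences of dim genes by construction. Over all genes, 492 were higher and 867 lower; the higher count was 102 after normexp, 304 without scaling, 1805 at 1.5-fold, 103 at 3-fold and 877 if dim probes were kept, and the lower count 2135, 374 and 1642 in the last 3. The median of ligands and partners was -0.37 with mean or dimmest probes, and that of other inhibitory receptors -0.042 after normexp and -0.045 with dimmest probes. Normexp on median signals, since no mean spot signal is used here, and the middle Cd300lf probe were chosen after seeing the data. No paired analysis was possible because each genotype has 1 array. Signal near background limits, among others, Cd300lb, Tyrobp, Ptpn6, Trem3 and Treml2.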

Other observations

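Other activating and inhibitory immune receptors were read from lists of the same design. Of 13 measured activating receptors 1 was at least 2-fold higher and 2 lower (median -0.14), and of 13 inhibitory receptors 1 was higher and 0 lower (median -0.28), beside 3.11% higher and 5.48% lower over all measured genes. Clec4d, a C-type lectin that pairs with the Fc receptor γ chain, had a signal of 119 on the array labelled SIRPα-KO and 806 on the WT array, 6.05-fold lower (-2.60 ± 0.21). Its relative Clec4e, which encodes Mincle, had 124 on the array labelled SIRPα-KO and 308 on the WT array, 2.20-fold lower, while Clec4n, which encodes Dectin-2, differed by 0.20 ± 0.20. Clec5a, a C-type lectin that pairs with DAP12, went the other way, with 92.4 on the array labelled SIRPα-KO and 28.8 on the WT array, 3.60-fold higher (1.85 ± 0.22). The inhibitory lectin Clec4a2 had 284 on the array labelled SIRPα-KO and 94.4 on the WT array, 3.38-fold higher (1.76 ± 0.21). Each of these 5 genes had 1 probe of 1 spot. After normexp Clec5a (0.94) and Clec4e (-0.96) were inside the 2-fold limit, and with dimmest probes 3 activating receptors were lower.

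Lists of markers of other splenic cells had medians near that of all genes, -0.09, with single genes further away both ways. Genes well above background on a single array enter with their dim side at a bound, which draws the value toward 0. B cell markers had a median of -0.06, from -2.07 (Cr2, whose further probe lay at 0.31) to 0.66 (Cd79b). Their summed signal before scaling was 1098 on the array labelled SIRPα-KO and 2446 on the WT array. That gap lies mostly in Cr2 (327 on the array labelled SIRPα-KO and 1547 on the WT array). T and NK cell markers had a median of -0.02, from -0.62 (Cd3e) to 0.20 (Cd3d), and a summed signal of 1322 on the array labelled SIRPα-KO and 2255 on the WT array, most of it from Cd3e. In that list Ncr1 and Klrb1c had their dim side, the array labelled SIRPα-KO, at the bound. They lay at -0.03 and -0.47 with it and at -2.02 and -0.87 without it. The T and NK cell median thus rests in part on the bound. Plasmacytoid dendritic cell markers had a median of -0.07, from -0.81 (Ccr9) to 0.68 (Siglech, whose further probe lay at 0.03). Platelet markers had a median of -0.09, from -0.51 (Gp9) to 1.44 (Gp1ba). Mast cell and basophil markers were measured for 3 of 6 genes, with a median of -0.03 and signals near the bottom of the measured range. Mcpt8 was set to 0 by the bound and lay at -0.35 without it.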
